A study of Mus musculus with 25 samples.

Results

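Some chromatin contacts were listed for H3K27ac in mouse fibroblasts and not in embryonic stem (ES) cells. A minority of them was also captured with the reprogramming factor KLF4 on day 3 of reprogramming. A contact here is a pair of 10 kb bins on 1 chromosome that was listed by the study as an interaction. Members were the pairs present in the H3K27ac list of mouse embryonic fibroblasts (MEFs), absent from the H3K27ac list of ES cells, and present in the KLF4 list of day 3, with both bins the same. They numbered 4612 of the 60870 MEF H3K27ac pairs, or 7.58%. Seen from the other lists, they were 10.7% of the 42969 MEF pairs absent from ES and 19.4% of the 23720 day 3 KLF4 pairs. The contrast set was the remaining 38357 MEF pairs absent from both the ES H3K27ac and the day 3 KLF4 list. Members were thus chosen by measured values, namely read counts and p-values in the 3 lists named, and levels in those lists are given below as a description only.

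H3K27ac is an acetylation of histone H3 found at active promoters and enhancers. KLF4 is a zinc-finger transcription factor that binds GC-rich CACCC-type sequences. It is 1 of the reprogramming factors and is also an endogenous factor of pluripotent and epithelial cells. In HiChIP, DNA ends that are near each other in fixed nuclei are joined, and the joined fragments are enriched with an antibody, whereas Hi-C does the ligation without an antibody. During reprogramming, fibroblast enhancers are known to be silenced early, and reprogramming factors have been found at such enhancers before they close.

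The series held 25 libraries in 9 groups, 21 of HiChIP and 4 of Hi-C. MEFs came from E13.5 embryos heterozygous for an Oct4-GFP reporter, a doxycycline-inducible cassette of the 4 factors (OKSM, placed at Col1a1) and the rtTA3 transactivator. The design text names the transactivator M2rtTA at Rosa26. MEF libraries for H3K27ac (2) and Hi-C (2) were from passage 3 without doxycycline. KLF4 libraries of day 3 (3) and day 6 (4) were from such cells grown with doxycycline and ascorbic acid. Day 3 cells were taken in bulk and day 6 cells after a sort for the surface marker SSEA1, so day and sort cannot be told apart. V6.5 ES cells in 2i medium gave the H3K27ac (2), KLF4 (4) and Hi-C (2) libraries. The TKO groups, also labelled as V6.5 in 2i, had H3K27ac libraries without doxycycline (3) and after 24 h of it (3), and the labels used here do not spell out what TKO stands for. Whether replicates came from separate cultures or embryos is not stated, so p-values measure the spread between these libraries. In a bulk library, fewer cells with a contact and fewer contacts per cell cannot be told apart.

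HiChIP libraries held 48.7 to 181 M contacts, and a listed pair had a median of 11 to 47 reads per library. The lists differed in length, from 4047 pairs at day 6 to 318622 in ES Hi-C, and a pair missing from a list may lie anywhere below the study's filters. Cell identity was read from promoter bins. The 4 matched fibroblast markers had 24 H3K27ac contacts in MEF and 0 in ES, the 6 matched pluripotency markers had 1 and 80, the 3 matched epithelial markers had 6 and 13, and the matched blood and endothelial markers had 0 in MEF. Below, a level is a read count per 100 M contacts of the library in HiChIP and per 10 M listed contacts in Hi-C.

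The promoters at which members end give the sequences involved. Coordinates are those of GRCm38 (mm10), and each stretch is the 250 bases before an annotated start, from RefSeq. Capitals mark KLF words (GGGTGTGG or GGGCGTGG, on either strand) and AP-1 words (TGAGTCA, which reads TGACTCA on the opposite strand). The first 3 are the promoters with a KLF word among 30 promoters of the 27 listed genes described below. The other 3 hold an AP-1 word and belong to the strongest contacts. They come from 25 promoters of 18 genes at members named below for strength or lowest p. Of those 25, 0 held a KLF word and 4 an AP-1 word. Among the 30 promoters of the listed genes, 2 held an AP-1 word.
Mafk, chr5:139791286-139791535, plus strand: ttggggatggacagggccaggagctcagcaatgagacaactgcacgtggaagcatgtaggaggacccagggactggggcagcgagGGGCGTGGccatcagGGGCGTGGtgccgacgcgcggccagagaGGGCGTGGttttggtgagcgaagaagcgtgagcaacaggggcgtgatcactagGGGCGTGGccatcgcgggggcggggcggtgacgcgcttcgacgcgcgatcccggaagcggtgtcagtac
Palld, chr8:61591140-61591389, minus strand: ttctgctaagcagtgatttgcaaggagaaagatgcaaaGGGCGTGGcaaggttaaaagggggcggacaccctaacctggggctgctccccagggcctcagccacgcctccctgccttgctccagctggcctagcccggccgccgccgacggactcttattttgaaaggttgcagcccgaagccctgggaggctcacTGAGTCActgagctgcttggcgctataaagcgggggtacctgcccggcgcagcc
Wwtr1, chr3:57575877-57576126, minus strand: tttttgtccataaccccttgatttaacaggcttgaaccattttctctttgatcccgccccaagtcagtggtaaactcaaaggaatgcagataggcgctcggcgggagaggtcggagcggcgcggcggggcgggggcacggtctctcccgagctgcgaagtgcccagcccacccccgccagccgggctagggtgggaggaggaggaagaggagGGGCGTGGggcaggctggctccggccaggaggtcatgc
Anxa2, chr9:69453433-69453682, plus strand: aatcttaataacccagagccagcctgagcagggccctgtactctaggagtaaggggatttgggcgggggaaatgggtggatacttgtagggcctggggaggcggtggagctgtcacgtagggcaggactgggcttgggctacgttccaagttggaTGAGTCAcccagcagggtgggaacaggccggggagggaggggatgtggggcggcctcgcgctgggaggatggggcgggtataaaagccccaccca
Emp1, chr6:135362681-135362930, plus strand: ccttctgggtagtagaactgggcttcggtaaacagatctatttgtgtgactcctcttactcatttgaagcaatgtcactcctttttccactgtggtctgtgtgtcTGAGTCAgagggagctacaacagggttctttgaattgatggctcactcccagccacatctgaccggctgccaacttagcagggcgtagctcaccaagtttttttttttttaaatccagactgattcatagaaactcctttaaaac
Capn2, chr1:182517611-182517860, minus strand: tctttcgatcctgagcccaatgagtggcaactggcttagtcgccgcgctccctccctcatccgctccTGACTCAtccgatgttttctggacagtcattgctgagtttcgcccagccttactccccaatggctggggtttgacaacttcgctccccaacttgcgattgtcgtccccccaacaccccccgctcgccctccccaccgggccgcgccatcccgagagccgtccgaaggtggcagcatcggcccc

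A KLF word lay in 13.9% (95% Wilson interval 11.9 to 16.2) of the 1034 protein-coding promoters within member bins. The share was 9.53% (8.58 to 10.6) of the 3347 promoters in bins of contrast pairs alone, 11.3% (10.3 to 12.4) of the 3618 in other MEF H3K27ac bins, which overlaps the members' interval, and 9.29% of all 21263 promoters. AP-1 words were in 4.93%, 3.97%, 2.76% and 4.06% of these sets. Median GC content was also highest in member bins, at 61.6%, with 58.4% in contrast bins, 59.6% in the other MEF bins and 55.6% over all promoters, and its part in the KLF share was not tested. Of the promoters shown, Mafk, a small Maf protein that pairs with larger bZIP factors, held 4 KLF words. Palld, the actin-bundling protein palladin, held 1 KLF and 1 AP-1 word. A word is a match of letters in this window and not a binding site.

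Members were mostly short-range contacts, and some chained into clusters. The median distance between their bins was 20 kb, as in the contrast set and in all MEF H3K27ac pairs, and the longest spanned 1440 kb. They used 6055 distinct bins, of which 68.6% also took part in contrast pairs. Linked by shared bins they formed 1861 groups, 1015 of them a single pair and 222 of 5 or more pairs. Those 222 groups held 1955 members, and the grouping was not compared with that of contrast pairs. Because linked pairs share a bin and therefore reads of the same fragments, they are not independent items.

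The largest cluster joined 26 bins by 41 members over 350 kb (chr8:126490001-126840000) around Irf2bp2, a transcriptional corepressor. Of these 41, 28 were in MEF Hi-C and 22 in ES Hi-C, 3 were in day 6 KLF4 and 0 in ES KLF4. Next came 30 members at Emp1 and Gsg1 on chromosome 6, 28 at Gnaq on chromosome 19, and 24 at the cytochrome P450 gene Cyp1b1 on chromosome 17. Clusters of 23 lay at Cavin1, which codes for a coat protein of caveolae, with Stat3, and at the small GTPase gene Rras2. Clusters of 21 included Col4a1 with Col4a2, the basement membrane collagens, Tcf7l2, a transcription factor of the Wnt pathway, and Rock2 with E2f6. Of the 28 members at Gnaq, 3 were in the MEF and 2 in the ES Hi-C list, and a cluster of 17 at Emx2 and Rab11fip2 on chromosome 19 had 0 in both.

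The 5 bins with most members had 0 to 2 H3K27ac contacts in ES. The bin at chr17:72960001-72970000 had 13 member contacts, with 21 contacts in MEF H3K27ac, 0 in ES H3K27ac, 13 in day 3 KLF4 and 0 in day 6 and ES KLF4. The bin at chr8:126660001-126670000, in the Irf2bp2 cluster, also had 13 members, with 27, 0, 13, 0 and 0 contacts in the same lists. The bin at chr19:32880001-32890000 had 13 as well, with 26 contacts in day 3 KLF4 and 7 in day 6 KLF4. The other 2 bins named, at the Emp1 promoter and at chr7:114200001-114210000 in the Rras2 cluster, had 11 each. In day 6 KLF4 each had 1 contact, and in ES KLF4 they had 2 and 0.

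Chromosomes were represented unevenly, with 448 members (9.71%) on chromosome 19 and 94 on chromosome 1. The study's cutoff was set within each chromosome, so that a pair needed fewer reads on a small one. Members were 14.1% of the MEF pairs absent from ES on chromosome 19, 14.2% on chromosome 7, 13.9% on chromosome 8, and 6.55% on chromosome 1. Domain borders were crossed by 1.26% of the members with both bins in a MEF domain and by 1.45% of such contrast pairs. With ES domains the shares were 1.35% and 1.91%.

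Promoters were more common at the ends of members than of contrast pairs, but not more common than in MEF H3K27ac bins at large. Of distinct bins, 13.6% held a protein-coding start in members, 9.71% in contrast pairs and 13.7% among all MEF H3K27ac pairs. A protein-coding start lay in 1 bin of 25.5% of members and in both bins of 2.25%, against 14.6% and 1.25% of contrast pairs. The rest, 72.2% of members and 84.1% of contrast pairs, had none in either bin. Both bins were without any ES H3K27ac contact in 49.6% of members and 61.7% of contrast pairs. Another 24.2% of members, against 17.9%, joined bins that each had an ES contact with some other bin.

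The levels that chose the members were modest. Their median was 26.7 and 29.5 in the MEF H3K27ac libraries, against 24.0 and 25.7 in the contrast set. In the day 3 KLF4 libraries it was 27.6, 26.5 and 22.7. By quartile of MEF level among pairs absent from ES, the share that were members went from 7.73% in the lowest to 15.3% in the highest. At the edge of the rule, 882 and 587 members had a deposited CPM under 4 in the MEF libraries, where the cutoff lies at 3. The authors' deposited FDR was under 0.1 for 156 members (3.38%) in the MEF list and for 27 (0.585%) in the day 3 list. Most members therefore rest on the unadjusted p-value.

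What became of these contacts was read first from 6 lists that the rule did not use. By day 6, 421 of 4612 members were still in the KLF4 list, 9.13% (8.33 to 9.99), and in ES KLF4 544 were, 11.8% (10.9 to 12.8). Contrast pairs were far rarer there, at 0.524% and 2.26%, and all MEF H3K27ac pairs stood at 3.55% and 14.6%. Contrast pairs were chosen by absence from a KLF4 list and members by presence in it, so part of their gap can follow from the rule. The order of members above contrast pairs held in 6 of 6 alternative ways to define the sets, all of which keep that choice. With 1 read cutoff for all chromosomes, there were 1797 members, and 3.34% of them were in day 6 KLF4 against 0.114% of contrast pairs. Members also differed from the pairs kept in ES: of the 6289 MEF pairs listed in both ES H3K27ac and day 3 KLF4, 18.5% were in day 6 KLF4 and 62.9% in ES KLF4. Those pairs were chosen by presence in an ES list and members by absence from it, so part of this gap can follow from the rule too. Of all day 3 KLF4 pairs, 10.9% reached the day 6 list and 31.1% the ES KLF4 list. These shares were compared without a test, and their intervals cover counting error only.

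Taking both later KLF4 lists, 3754 members (81.4%) were in neither, against 97.3% of contrast pairs. The day 6 list alone held 314 (6.81%), the ES list alone 437 (9.48%), and 107 (2.32%) were in both. For contrast pairs these 3 shares were 0.417%, 2.16% and 0.107%. Stronger day 3 contacts were found again more often. From the lowest to the highest quartile of day 3 level, members in the day 6 list went from 3.43% to 17.9%, and other day 3 pairs from 4.41% to 22.7%. In ES KLF4 the same quartiles gave 7.14% to 16.7% of members and 19.4% to 55.1% of other day 3 pairs, and members lay below the others in all 4 quartiles. Only members were chosen by absence from an ES list, so part of that gap can follow from the rule. The day 6 list held 13.7% of members with adjacent bins and 4.45% of those 100 kb or more apart.

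Absence from the ES H3K27ac list was not absence in all ES-type libraries. The TKO list without doxycycline held 864 members, 18.7% (17.6 to 19.9), and the one after 24 h held 842, 18.3%. For contrast pairs the shares were 8.57% and 9.08%, and for the pairs kept in ES 91.6% and 89.2%. All MEF H3K27ac pairs, which include those kept in ES, stood at 32.2% and 31.9%. The pairs kept in ES were chosen by presence in an ES H3K27ac list, so part of their high share can follow from the rule. With each bin allowed to lie 1 bin away, the ES H3K27ac list itself held a neighbour of 26.1% of members and 18.3% of contrast pairs. In the TKO libraries without doxycycline, the 864 members had median levels of 29.1, 29.2 and 28.6, and the same pairs had 26.7 and 29.5 in MEF. Contrast pairs in that TKO list had similar medians, at 29.1, 29.2 and 29.8. The pairs kept in ES stood higher there, at 49.1, 50.2 and 49.7. All these medians cover listed pairs only.

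**Figure D1:**
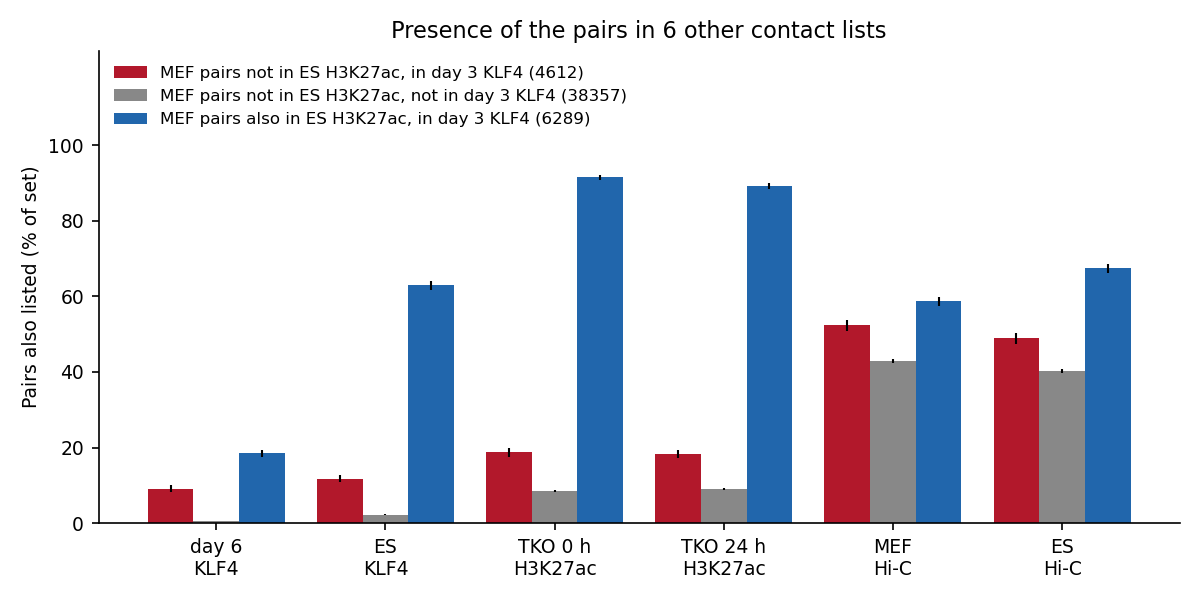
Share of each set of MEF H3K27ac pairs that was found in 6 other contact lists, in percent, with 95% Wilson intervals as error bars. Members (red) exceed contrast pairs (grey) in all 6 lists, and pairs also listed in ES H3K27ac (blue) exceed members in all 6. The sets were themselves chosen by the day 3 KLF4 and ES H3K27ac lists.

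Hi-C, which needs neither antibody, showed most members as contacts in at least 1 cell type. MEF Hi-C listed 2414 members, 52.3% (50.9 to 53.8), and ES Hi-C listed 2254, 48.9% (47.4 to 50.3). Contrast pairs were at 42.8% and 40.3%, and all MEF H3K27ac pairs at 47.1% and 48.6%. The members' ES Hi-C share was thus near that of all MEF pairs. Both Hi-C lists held 1604 members (34.8%), MEF Hi-C alone held 810 (17.6%), ES Hi-C alone 650 (14.1%), and neither held 1548 (33.6%). Contrast pairs were split into 27.1%, 15.8%, 13.3% and 43.9% in the same order. Being in MEF Hi-C went with being found in other lists: 66.4% of the members listed there were also in ES Hi-C, against 29.6% of the rest. For day 6 KLF4 these shares were 11.6% and 6.37%, and for ES KLF4 14.8% and 8.51%. The same pattern was present in contrast pairs, with 63.2% and 23.2% for ES Hi-C. Their shares were 0.761% and 0.347% for day 6 KLF4, and 3.16% and 1.59% for ES KLF4.

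The MEF and ES Hi-C lists differed most over long members. Adjacent bins were listed alike, with 48.8% in MEF and 48.4% in ES Hi-C. At 50 to 90 kb the shares were 58.2% (54.4 to 61.9) and 51.0% (47.2 to 54.8). At 100 kb or more, 210 of 337 members, 62.3% (57.0 to 67.3), were in MEF Hi-C and 129, 38.3% (33.2 to 43.6), in ES Hi-C. This was so although the ES Hi-C list is the longer, with 318622 pairs against 228083. The 3640 contrast pairs of that distance gave 34.3% (32.7 to 35.8) and 24.3% (23.0 to 25.8). From adjacent bins to 100 kb or more, the MEF Hi-C share rose among members and fell among contrast pairs, which started at 45.0%.

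**Figure D2:**
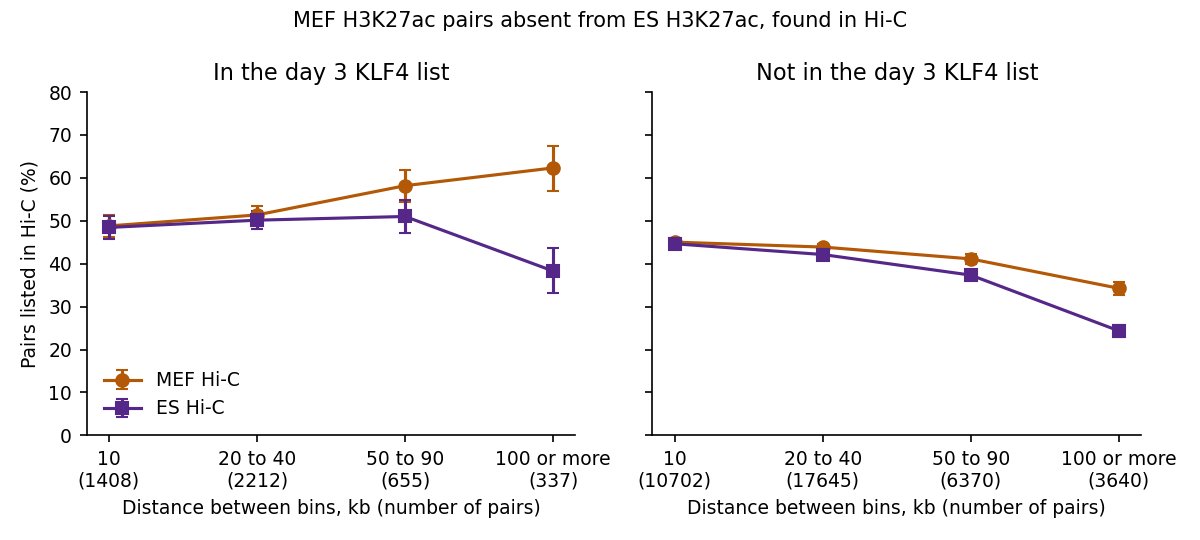
Percent of MEF H3K27ac pairs absent from ES H3K27ac that were listed in MEF Hi-C (orange circles) and ES Hi-C (purple squares), by distance between the bins in kb, with 95% Wilson intervals. Left, members; right, contrast pairs. The 2 curves coincide for adjacent bins and lie farthest apart at 100 kb or more, where members reach 62.3% and 38.3%.

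Levels of pairs in both lists of a comparison were then tested on read counts by edgeR's quasi-likelihood test over the whole table, with Benjamini-Hochberg adjustment and a threshold of 0.05. Such a test says nothing of the members that 1 list lacks. In Hi-C, 1602 members were tested between MEF and ES and 0 were called, against 0.0289% of all 124544 pairs, 0.0201% higher in ES and 0.00883% lower. DESeq2 also called 0 members. Their median log2 change, ES minus MEF, was -0.05, that of contrast pairs -0.05 and that of all pairs 0.00. Scaled by listed counts without TMM, all pairs had a median of -0.33, and 128 members (7.99%) were called, all lower in ES, against 4.15% of the other pairs. In simulated data of this comparison 25% of 2-fold changes were recovered, so changes of that size would mostly have gone uncalled. At 100 kb or more, 77 of 106 members were lower in ES by value and 29 higher, with a median of -0.33. Contrast pairs of that distance had a median of -0.25 and all pairs -0.11.

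The members of lowest p in Hi-C were long contacts at Chrna1 and at the collagen VI genes, though none passed the threshold. The pair chr2:73580001-73590000 and chr2:73740001-73750000 joins the promoter bin of Chrna1, a subunit of the muscle acetylcholine receptor, to the body of Chn1. It had Hi-C levels of 52.0 and 62.1 in MEF and 19.9 and 18.97 in ES, a log2 change of -1.21 ± 0.29 (SE, adjusted p = 0.110). At collagen VI, a matrix protein of fibroblasts, the bin of the Col6a2 promoter (chr10:76620001-76630000) contacted chr10:76730001-76740000. There the levels were 55.6 and 47.9 in MEF and 22.3 and 16.0 in ES (log2 change -1.11, adjusted p = 0.223). In both pairs every MEF library lay above every ES library, on a scale that runs lower in ES. The neighbouring Col6a2 pair at 120 kb (log2 change -1.19, adjusted p = 0.237) and a 100 kb pair at Rab3b (-0.91, 0.313) pointed the same way.

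Between day 3 and day 6, KLF4 levels of the members that were in both lists shifted about as much as those of all pairs. Of 416 members tested, 15 were called, 3 higher and 12 lower at day 6, or 3.61%. The background was 5.33% of 2571 pairs, with 1.32% higher and 4.01% lower. These changes are relative to TMM scaling. With levels set by contact totals only, all pairs had a median log2 change of -0.58 and members of -0.61, and 263 members were called, all lower. Those were 63.2% of members tested, against 61.8% of all pairs. Relative to that common shift, the members' median was -0.00 and that of all pairs 0.02. Per library the 421 members had median levels of 33.1, 33.9 and 29.9 at day 3 and of 22.6, 21.1, 21.7 and 20.1 at day 6, so that every day 3 median was above every day 6 median. Leaving out day 3 replicate 2, day 6 replicate 2 or day 6 replicate 4 left 7, 9 or 6 calls. Those were 1.71%, 2.16% and 1.47% of members, against 3.17%, 3.74% and 2.71% of all pairs. DESeq2 called 4 of the 197 members to which it gave an adjusted p.

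The lowest p at day 6 belonged to an intergenic pair at chr6:127330001-127340000 and chr6:127340001-127350000. Its levels were 105, 96.5 and 70.9 at day 3 and 22.6, 28.1, 33.2 and 29.4 at day 6 (log2 change -0.96 ± 0.17 SE, edgeR adjusted p = 9.28e-05). All 4 day 6 libraries were below all 3 of day 3. In the cluster of Rock2, a kinase of the actin cytoskeleton, the adjacent bins at chr12:16860001-16870000 and chr12:16870001-16880000 went from 101, 60.4 and 59.3 to 14.4, 22.1, 26.8 and 24.0 (log2 change -0.93). A pair at Itpripl2 on chromosome 7 (-0.86) and an intergenic pair on chromosome 16 (-0.93) were also called lower. Of the 3 members called higher, the pair of lowest p joined a bin inside the kinase gene Akt1 to one 50 kb away. Its levels overlapped, with 23.9, 21.4 and 12.7 at day 3 and 18.5, 22.1, 29.3 and 26.3 at day 6. Its log2 change was 1.09 (edgeR adjusted p = 0.000409) relative to the other pairs, and 0.48 (adjusted p = 0.0694) by contact totals alone.

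Between day 3 and ES, the members that were called had all fallen. Of 544 tested, 53 (9.74%) were lower in ES and 0 higher. Over all 7387 pairs 7.2% were called, 3.02% higher and 4.18% lower. By value, 417 members were lower and 127 higher, with a median log2 change of -0.21 against 0.00 over all pairs. Every pair in this test was in the day 3 list, so that part of the rule applies to the background too, whereas absence from ES H3K27ac applies to members alone. Leaving out day 3 replicate 1, 2 or 3 left 29, 26 or 17 calls, all lower, and leaving out ES replicate 4 left 31, of which 30 were lower and 1 higher. Contact totals without TMM gave 25 calls, and DESeq2 gave 7 among the 184 members to which it gave an adjusted p, all lower in both. Over all members in the fit these were 4.6% and 1.29%, against 3.84% and 0.975% of all pairs. ES libraries 1 and 2, and likewise 3 and 4, did not differ beyond sampling noise (chi-square per degree of freedom 1.01 and 0.966) and were counted as 1 sample each.

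**Figure D3:**
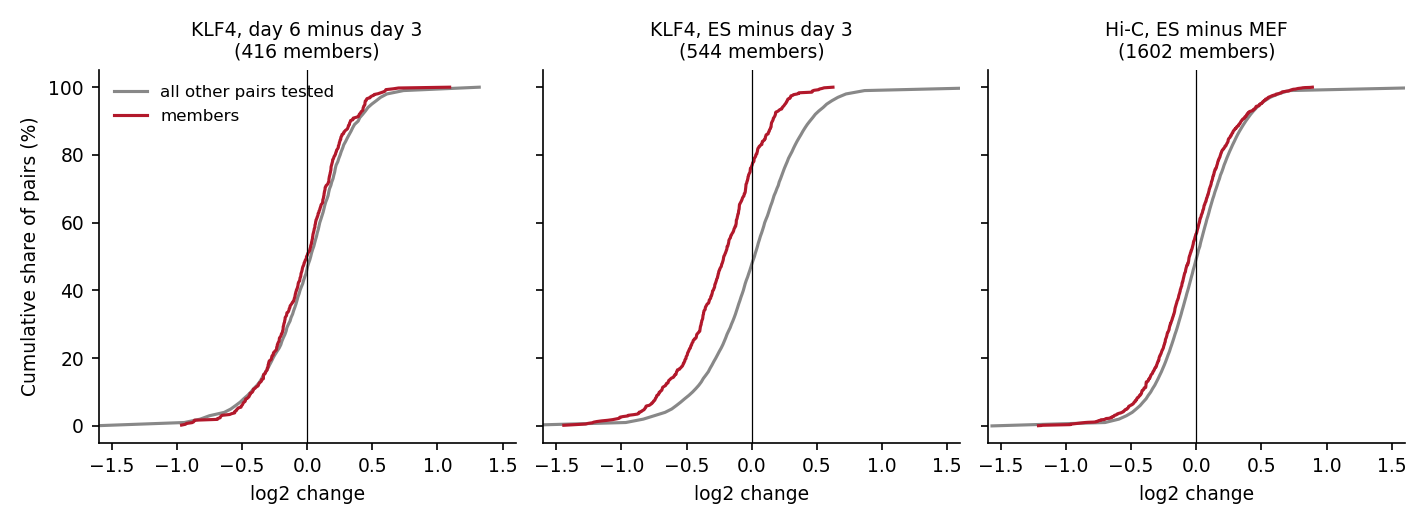
Cumulative distribution of the log2 change of members (red) and of all other pairs tested (grey) in 3 comparisons, with pairs in both lists only and with TMM scaling. The curves lie close together for day 6 and for Hi-C, whereas in ES against day 3 the members' curve is shifted to lower values, with a median of -0.21.

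The 5 members of lowest p between day 3 and ES lay at Sh3bp5, Tjp1, the S100 genes and Pllp. The pair of lowest p, chr14:31400001-31410000 and chr14:31430001-31440000, ends at the promoter of Sh3bp5, an adaptor that binds the kinase JNK. It had 44.1, 42.7 and 42.1 at day 3 and 18.3, 19.3, 11.9 and 18.6 in ES KLF4, a log2 change of -1.36 ± 0.23 (SE, edgeR adjusted p = 9.82e-06). Tjp1, which codes for the tight junction scaffold ZO-1, had 2 such contacts from its promoter bin at chr7:65370001-65380000. The one reaching 40 kb had 55.2, 52.3 and 41.5 at day 3 and 24.0, 25.1, 15.8 and 17.6 in ES (log2 change -1.27). The one reaching 60 kb was in the day 6 list too, with 38.6, 39.8 and 37.1 at day 3, 16.4, 17.1, 29.3 and 17.8 at day 6, and 16.0, 19.3, 15.8 and 15.7 in ES (-1.26). In all 3 pairs the day 3 libraries stood above every ES library.

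Of the strongest members, 2 at 20 kb or more were among those called lower in ES. The pair chr3:90580001-90590000 and chr3:90610001-90620000 joins promoters of the calcium-binding proteins S100a3 and S100a6. Its levels were 96.0 and 129 in MEF H3K27ac, 58.9, 75.1 and 49.8 in day 3 KLF4, and 30.9, 28.9, 19.8 and 28.4 in ES KLF4 (log2 change from day 3 to ES -1.19 ± 0.21 SE, edgeR adjusted p = 2.57e-05). At Capn2, the catalytic subunit of a calcium-dependent protease, a 20 kb pair had 71.7, 57.4 and 45.4 at day 3 and 33.2, 28.9, 18.5 and 23.5 in ES (log2 change -1.11, edgeR adjusted p = 9.85e-05). A 30 kb pair between the promoters of Arl2bp and Pllp was lower by a similar amount (-1.21). In Hi-C the S100a3 to S100a6 pair had 43.0 and 40.8 in MEF and 34.0 and 43.9 in ES, which overlap. Its log2 change with TMM scaling was 0.24 and was not called.

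The strongest member overall lay in Anxa2, which codes for annexin A2, a calcium-dependent membrane-binding protein abundant in fibroblasts. Its adjacent bins, chr9:69450001-69460000 with the promoter and chr9:69460001-69470000, had 104 and 136 in MEF H3K27ac and 143, 113 and 105 in day 3 KLF4. The pair was in none of the 6 other lists. A second Anxa2 pair, 20 kb long and ending in the same bin, had 74.7 and 98.9 in MEF and 80.9, 68.5 and 60.4 at day 3. That one was in MEF Hi-C, with 50.2 and 63.9, and not in ES Hi-C. The Anxa2 promoter bin had 9 MEF H3K27ac contacts, of which 7 were members, and 0 contacts in ES H3K27ac.

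Vim, the intermediate filament gene of mesenchymal cells, held the strongest member with bins at least 20 kb apart, chr2:13550001-13560000 and chr2:13570001-13580000. Levels were 65.4 and 90.3 in MEF H3K27ac and 114, 84.7 and 59.8 at day 3. MEF Hi-C listed it at 48.4 and 63.9, and ES Hi-C, day 6 KLF4 and ES KLF4 did not. The next was a 110 kb contact between the promoters of Gsg1 and Emp1, a tetraspan membrane protein, with 77.4 and 88.4 in MEF and 77.2, 69.2 and 68.1 at day 3. It was in both Hi-C lists, at 34.1 and 40.8 in MEF and 19.9 and 28.0 in ES, and in neither later KLF4 list. A 20 kb pair within Dnm3 was likewise in MEF Hi-C alone of these 4 lists.

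Other strong adjacent pairs were found in different lists. One inside Cd109, which codes for a surface protein that binds TGF-beta, had 117 and 167 in MEF, 73.6, 73.6 and 55.9 at day 3, and 40.1, 54.0, 31.6 and 43.1 in ES KLF4 (log2 change -0.70, edgeR adjusted p = 0.0214). One inside Ankrd11 remained in the day 6 list at 39.0, 32.1, 44.6 and 38.7 after 71.7, 75.1 and 46.5 at day 3 (log2 change -0.07 relative to other pairs, edgeR adjusted p = 0.886). One at the promoter of Cyth3, an exchange factor for ARF GTPases, was in none of the later KLF4 or Hi-C lists. Of the 16 strongest members, 8 adjacent and 8 at 20 kb or more, 13 were absent from day 6 KLF4, 13 from ES KLF4, 4 from MEF Hi-C and 6 from ES Hi-C. Among all 4612 members, the shares present in these lists were 9.13%, 11.8%, 52.3% and 48.9%. The strongest were thus absent less often than members at large.

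**Figure D4:**
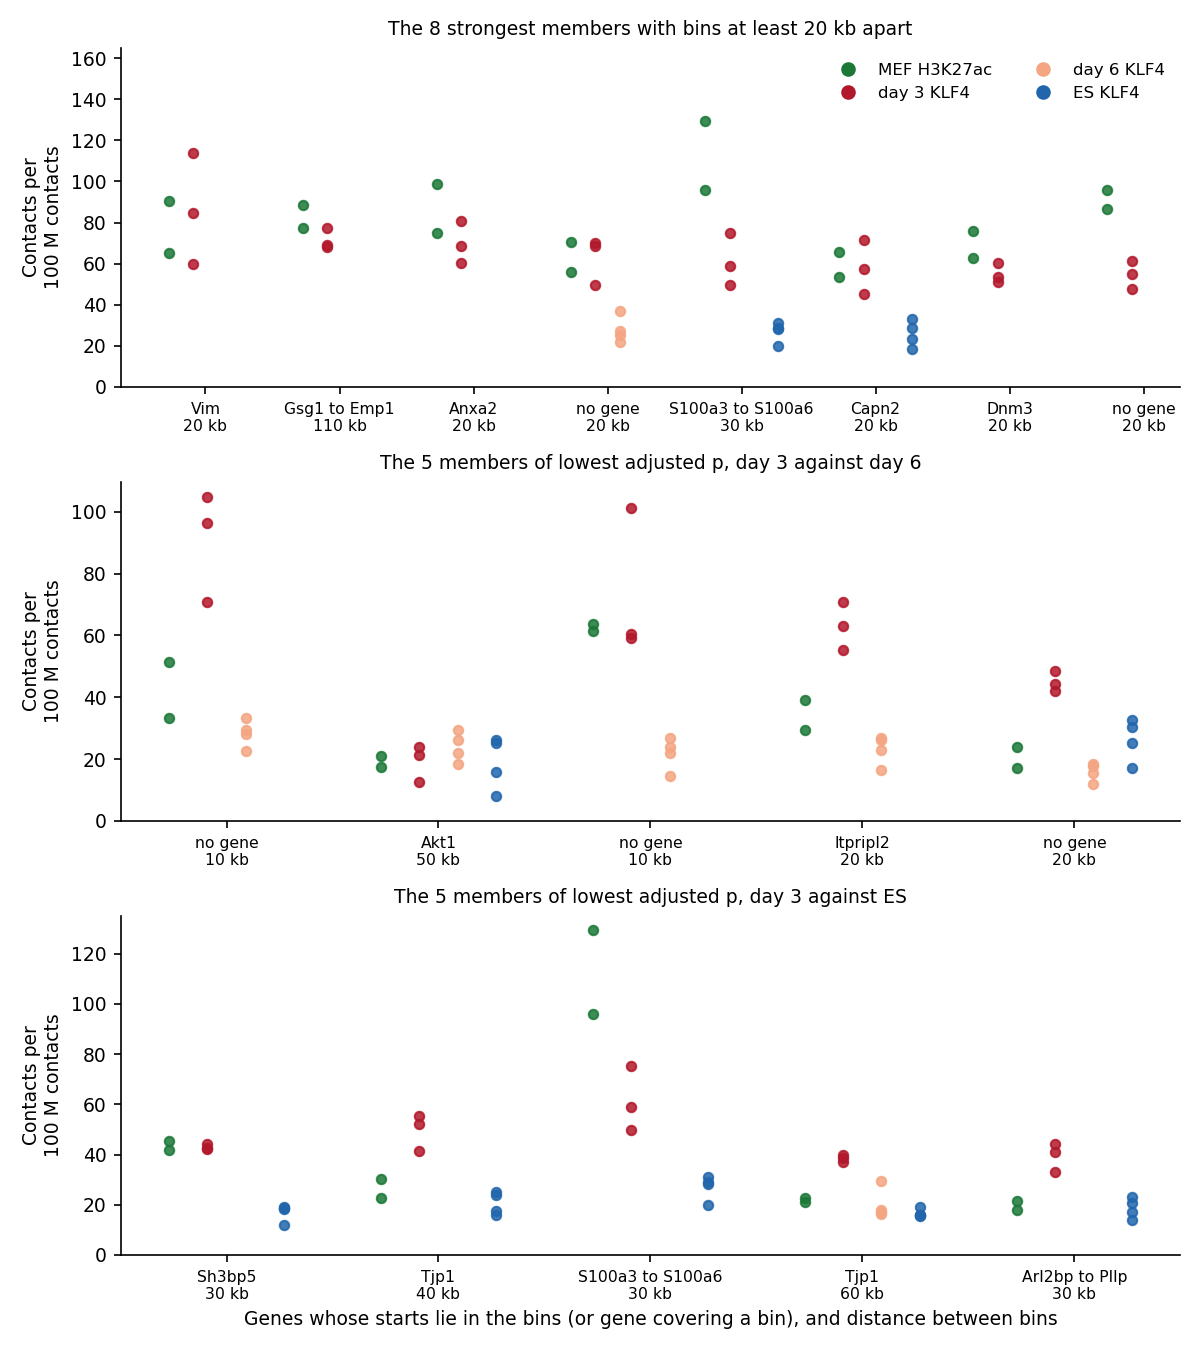
Levels per library, in contacts per 100 M contacts, of the 8 strongest members at 20 kb or more (top) and of the 5 members of lowest adjusted p between day 3 and day 6 (middle) and between day 3 and ES (bottom). Points are libraries, coloured by group, and a group without points did not list the pair. The pairs chosen for their ES difference sit at 33.1 to 75.1 at day 3 and 11.9 to 30.9 in ES KLF4.

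A small set of 76 members (1.65%) was in day 6 KLF4, ES KLF4 and both Hi-C lists, against 29 contrast pairs (0.0756%). The strongest lay at the promoter of Mef2a, a MADS-box transcription factor. Its adjacent bins had 57.4 and 70.4 in MEF H3K27ac, 57.0, 54.5 and 43.8 at day 3, 30.8, 32.1, 29.3 and 32.5 at day 6, and 42.4, 40.5, 38.2 and 28.4 in ES KLF4. Neither KLF4 comparison called it (edgeR adjusted p = 0.915 and 0.139). Pairs inside Ttc28, at Cpd and at Nedd9, a scaffold of focal adhesions, followed. At the other end 1374 members (29.8%) were in none of these 4 lists, against 43.2% of contrast pairs. They included 2 Anxa2 pairs, the Cyth3 pair and 2 intergenic pairs on chromosome 2.

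Genes of fibroblast biology were then read through the members at their promoters. Of all 17492 protein-coding genes with an annotated start, 845 (4.83%) had at least 1 member in the start bin. The extracellular matrix list had 6 of 14 matched genes (Col1a2, Col6a1, Col6a2, Thbs2, Tnc and Timp2) and the mesenchymal list 5 of 16 (Vim, S100a4, Itgb1, Prrx1 and Runx1). The list of AP-1 and early response genes had 6 of 11 (Jun, Fos, Fosb, Atf3, Mafk and Ier3). TGF-beta and YAP response genes had 3 of 12, actin and adhesion genes 4 of 19, and KLF family and epithelial genes 3 of 14. The pluripotency list had 0 of 13. A member needs a MEF H3K27ac contact, and only 1 of these 13 genes had any. Of all 17492 genes 6432 had one, so the 4.83% includes many genes that could hold no member. Such a contact was present at 13 matrix, 10 mesenchymal and 10 AP-1 and early response genes. The other lists had 10 TGF-beta and YAP, 18 actin and adhesion, and 9 KLF and epithelial genes with one. How far this sets the shares was not tested. These lists were matched through a promoter table that is not complete, and genes without an entry were not analysed here.

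The 6 matrix genes with a member had 4 to 15 H3K27ac contacts in MEF and 0 in ES. Over all 14 matched matrix genes there were 91 contacts in MEF and 30 in ES, where 3 genes had any, and Timp1, an inhibitor of matrix metalloproteinases, had more in ES (14) than in MEF (7). Thbs2, an anti-angiogenic thrombospondin, had 15 contacts in MEF H3K27ac, 0 in ES H3K27ac, 6 in day 3 KLF4, 2 in day 6 KLF4 and 1 in ES KLF4. Its promoter bin at chr17:14690001-14700000 and the bin before it had 33.3 and 37.1 in MEF, 25.7, 36.8 and 34.3 at day 3, and 26.7, 27.1, 24.2 and 24.0 at day 6. Tnc, the matrix protein tenascin C, had 10, 0, 4, 0 and 0 contacts in the same order of lists. Its 20 kb pair from chr4:64040001-64050000 had 78.7 and 79.9 in MEF H3K27ac and 31.3, 23.6 and 27.7 in day 3 KLF4. Col1a2, a chain of collagen I, had a single member, 90 kb long, with 34.7 and 57.1 in MEF and 33.1, 19.9 and 22.2 at day 3. It was in MEF Hi-C and not in ES Hi-C.

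Among the 5 mesenchymal genes Runx1, a RUNX-family transcription factor of blood and mesenchyme, had most day 3 KLF4 contacts. It had 20 MEF H3K27ac contacts, 1 in ES and 11 in day 3 KLF4, 5 of them members, then 0 at day 6 and 2 in ES KLF4. At 20 kb its pair from chr16:92690001-92700000 had 14.7 and 25.7 in MEF and 29.4, 35.3 and 26.0 at day 3. Levels from different antibodies are set side by side only, since they reflect enrichment as well as contact. Prrx1, a homeobox factor of limb and fibroblast mesenchyme, had 9, 0, 3, 0 and 0 contacts. Vim had 8, 0, 5, 0 and 0, with 4 of the 5 day 3 contacts members.

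AP-1 and early response genes differed in their ES contacts. Jun had 10 contacts in MEF H3K27ac, 1 in ES and 1 at day 3, a 40 kb pair with 42.7 and 42.8 in MEF and 27.6, 32.4 and 25.5 at day 3. Fos had 9 in MEF and 8 in ES, 8 at day 3 and 8 in ES KLF4. One of its 2 members, 90 kb long, was in ES KLF4 at 21.8, 17.4, 9.23 and 6.86, after 18.4, 14.0 and 7.20 at day 3, and was not called. Ier3 had 14, 10, 9, 0 and 7 contacts. Mafk, whose promoter carries 4 KLF words above, had 4, 1, 1, 0 and 1.

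Among signalling and cytoskeletal genes, Tgfbr2, the type II TGF-beta receptor, had 9 contacts in MEF H3K27ac, 0 in ES, 5 at day 3, 2 at day 6 and 0 in ES KLF4. Its 40 kb pair downstream of the start bin in coordinates, chr9:116170001-116180000 and chr9:116210001-116220000, had 20.01 and 20.9 in MEF and 40.5, 30.2 and 22.2 at day 3. Acta2, the smooth muscle actin of myofibroblasts, had 15, 0, 2, 1 and 0. Its 40 kb pair to the bin of Fas had 30.7 and 20.9 in MEF, 33.1, 34.6 and 28.2 at day 3, and 8.22, 12.0, 12.8 and 15.5 at day 6, all below day 3 (edgeR adjusted p = 0.0915). Tpm1, a tropomyosin, had 16, 9, 10, 1 and 4.

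The 3 KLF family and epithelial genes with a member had H3K27ac contacts in both cell types. Tjp1 had 9 contacts in MEF H3K27ac, 3 in ES, 12 at day 3, 2 at day 6 and 7 in ES KLF4, and 5 of its day 3 contacts were members. Klf9, a KLF-family repressor, had more H3K27ac contacts in ES than in MEF, at 22 and 18, with 19 at day 3 and 10 in ES KLF4. Its 3 members were 200 to 230 kb long and ended in the body of Trpm3. Krt8, a simple-epithelial keratin, had 3, 2, 4, 1 and 2. These contact numbers rest on a single list for each group, so they carry no replicate error.

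**Figure D5:**
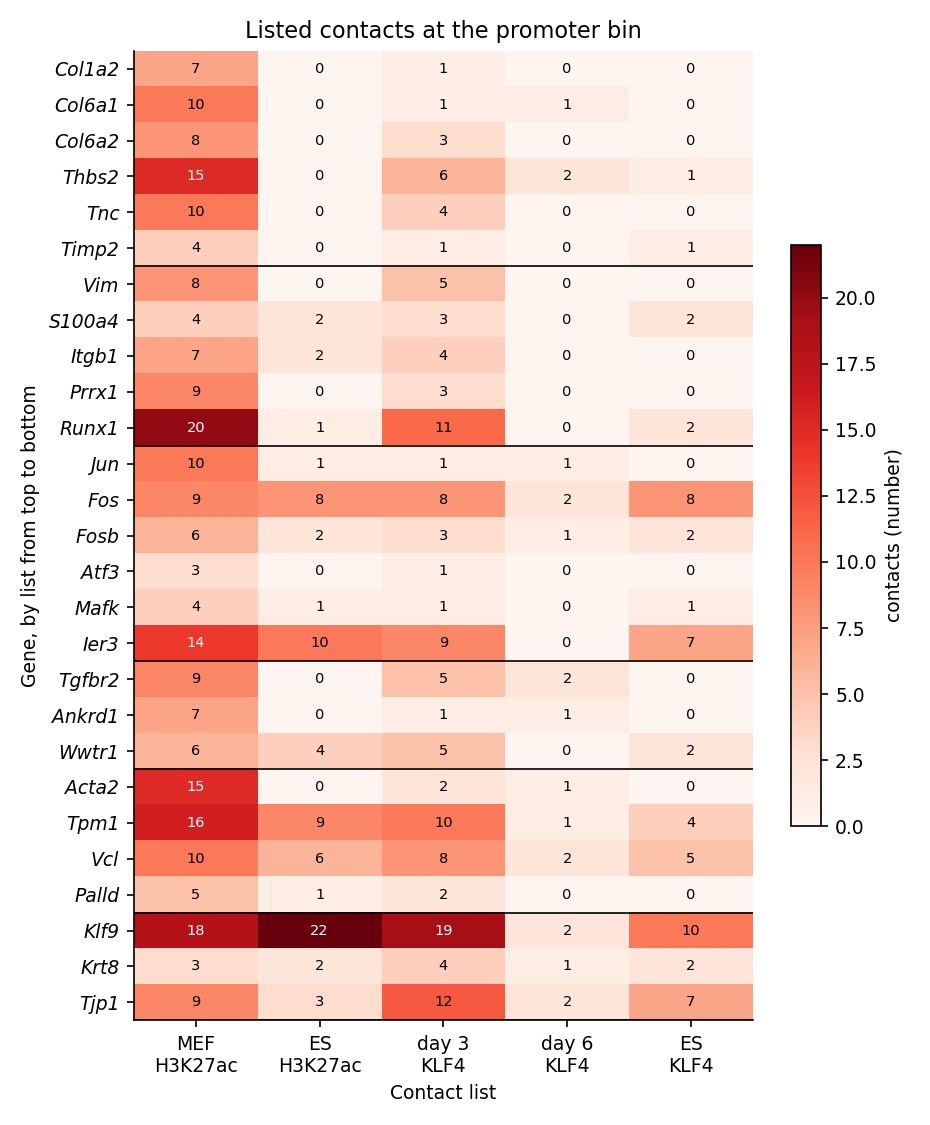
Number of listed contacts at the promoter bin of the 27 listed genes that had a member, in 5 lists; lines separate, from top to bottom, matrix, mesenchymal, AP-1 and early response, TGF-beta and YAP, actin and adhesion, and KLF and epithelial genes. Numbers are 3 to 20 in MEF H3K27ac, where a gene needed a contact to be shown. They are 0 to 2 at day 6 in every gene, from a list of 4047 pairs against 60870 in MEF H3K27ac.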

How the data were processed

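HiChIP was deposited as 7 lists and Hi-C as 2 lists of pairs of 10 kb bins. Per the file headers, the authors deposited a raw count, a value named CPM and a ratio of observed to expected contacts for each library, with 1 p-value and 1 FDR per pair. The submitters' processing notes name Bowtie2 2.2.3 and mm10, and the test behind the deposited p-values is not given in the sources used here. In HiChIP the deposited CPM is scaled to the contacts of the same chromosome. In Hi-C the deposited value named CPM follows no contact total and was treated as a score. Domains were deposited with a score per border or domain, of which only positions were used. As the values show, HiChIP lists keep p under 0.1 and a CPM above 3 in all H3K27ac libraries and in KLF4 libraries 1 and 2, and Hi-C lists keep p under 0.01 and values of at least 15.

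Counts were rescaled here to 100 M contacts of a library, summed over chromosomes, or to 10 M listed contacts in Hi-C. Shares carry 95% Wilson intervals, which cover counting error only, since ligation products were amplified by PCR. Pairs in both lists of a comparison were tested on raw counts with edgeR 4.0.16 (R 4.3.3), quasi-likelihood, filterByExpr, TMM, only the 2 groups in the fit, and Benjamini-Hochberg adjustment over the whole table. The printed SE is the log2 change over the square root of the F statistic. Libraries whose counts agreed within sampling noise were summed where another pair of the group differed (chi-square per degree of freedom 1.01 and 0.966 against 1.25 to 1.50 in ES KLF4). The 4 day 6 libraries differed by no more than sampling noise throughout and stayed separate. On simulated data the test recovered 94% of 2-fold changes for day 3 and day 6 and 77.5% for day 3 and ES. DESeq2 1.42.0, other scalings, filters, distances and left-out libraries were alternatives. Tables and figures used Python 3.11.15, numpy 2.4.6, pandas 2.3.3, networkx 3.6.1 and matplotlib 3.10.9.

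Starts and promoters came from RefSeq tables of GRCm38.p6. Members, lists and tests were chosen with earlier results of these data known. Strength was the lower of a member's mean MEF H3K27ac and mean day 3 KLF4 level. Named were the 8 strongest adjacent members and the 8 strongest at 20 kb or more (1 per linked group), the 5 bins with most members, the 5 members of lowest adjusted p per comparison, the 5 strongest in all and in none of the 4 later KLF4 and Hi-C lists, and every gene of the fixed lists with a member at its start. Timp1 and the clusters described were chosen after their values were seen. A pair that this rule names in the Hi-C comparison is not reported here. The deposited ratio was not used.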

Additional observations from a re-analysis of the deposited data

Results flagged for a closer look

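In 41 groups of 4 libraries, the levels of named members were checked for a library far from the other 3, by its gap to the nearest of them over the whole range, against Dixon's 95% critical value. Chance alone flags about 1 group in 20, and 3 were marked. At the Sh3bp5 pair on chromosome 14, ES KLF4 library 3 was low, at 11.9 against 18.3, 19.3 and 18.6 (gap over range 0.870). At the 60 kb Tjp1 pair on chromosome 7, day 6 library 3 was high, at 29.3 against 16.4, 17.1 and 17.8 (0.895). At the same Tjp1 pair, ES KLF4 library 2 was high, at 19.3 against 16.0, 15.8 and 15.7 (0.906). Both pairs are among those called lower in ES, and neither call was lost when any single library was left out.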

How the results depend on the processing

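The number of members was 1797 with 1 cutoff for every chromosome, 7967 with anchors up to 1 bin away, 992 at 50 kb or more and 2381 with a MEF p-value under 0.01. Under these 4 settings the share of members in ES KLF4 was 14.0%, 15.1%, 8.57% and 10.8%, in MEF Hi-C 53.9%, 84.6%, 59.6% and 59.6%, and in ES Hi-C 53.4%, 75.0%, 46.7% and 54.1%. In day 6 KLF4 it was 3.34%, 14.5% and 5.24% under the first 3. At 20 kb or more the shares were 7.12% in day 6 KLF4, 10.6% in ES KLF4 and 53.9% in MEF Hi-C, and without chromosome 19 ES Hi-C was at 50.8%.

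Calls between day 3 and day 6 numbered 263 with contact totals without TMM, 266 with chromosome totals and 4 with DESeq2, and 6 to 15 when 1 library was left out. In the first 3 settings these were 63.2%, 63.9% and 0.95% of members, against 61.8%, 60.6% and 1.62% of all pairs. Between day 3 and ES calls numbered 25, 24 and 7 in the same order, 31 at 20 kb or more, and 17 to 60 when 1 library was left out. The first 3 were 4.6%, 4.41% and 1.29% of members, against 3.84%, 3.61% and 0.975% of all pairs. In Hi-C there were 128 calls with listed counts without TMM, all lower in ES, and 0 to 1 when 1 library was left out.

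Replicate numbers did not pair the libraries, with correlations of same-numbered deviations from -0.05 to 0.03. With the replicate number as a block, calls numbered 7, 34 (33 lower and 1 higher) and 1.

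Depth limits single pairs, since a listed member had median counts of 11 to 41 in KLF4 libraries.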
